A study of Homo sapiens with 2 samples.

Results

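The matrix metalloproteinase (MMP) gene cluster of chromosome 11, band 11q22.2, was described through the regions of HMGB2 binding listed for a comparison of senescent with growing IMR90 cells. It was taken as the 450 kb from 102385000 to 102835000 of chromosome 11 in hg19, the stretch of MMP7, MMP20, MMP27, MMP8, MMP10, MMP1, MMP3, MMP12 and MMP13 in that order. Members were all listed regions that overlapped this stretch by at least 1 bp. They numbered 4 of the 364 broad and 3 of the 2792 narrow regions, in all 7 of 3156.

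HMGB2 is a chromatin protein of the high mobility group that binds and bends DNA. It was precipitated with a rabbit antibody from IMR90 cells, a line of human lung fibroblasts grown in 2% oxygen. The study had 1 library of cells infected with RAS, an oncogene that brings fibroblasts into lasting growth arrest, and 1 library of growing control cells, both at day 2. The labels name neither the RAS form nor its vector, and no control vector is named for the growing cells. Each list compares the senescent with the growing library. That listed regions are the higher ones in senescent cells was read from the list names, and no listed value tests it. Positions are given as listed, without a score, fold or read count, so no size of a difference and no depth can be given. With 1 library per condition, no region had a replicate check.

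MMPs are secreted or membrane-bound zinc endopeptidases that are made as inactive proenzymes and digest the extracellular matrix once their propeptide is removed. Tissue inhibitors of metalloproteinases (TIMPs) block them. In the cluster, MMP1, MMP8 and MMP13 are collagenases that cut fibrillar collagen, MMP3 and MMP10 are stromelysins that cut other matrix proteins and can activate procollagenases, MMP12 is the macrophage elastase, MMP7 is matrilysin and MMP20 acts on tooth enamel matrix. MMP1, MMP3 and MMP10 are known as parts of the secretome of senescent fibroblasts, and AP-1 sites next to the start of transcription are a textbook feature of inducible MMP genes.

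All 4 broad regions lay at MMP1 and MMP3. Of 6868 windows of 450 kb tiled over hg19, assembly gaps included, 4.57% held a broad region and 31.5% a narrow region. MMP1, the interstitial collagenase, had a region in the first part of its body, another in the last part and another across its end, and MMP3, stromelysin 1, had a region across its end. MMP10, stromelysin 2, the neighbour of MMP1, had none in the gene or within 5 kb. The starts of MMP1, MMP3 and MMP10 were not covered. MMP7, MMP20, MMP27, MMP8, MMP12 and MMP13 had no broad region.

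Promoters are shown of MMP10, the neighbour of MMP1 without a region, of MMP7, with 2 motifs at about the same places as in MMP10, and of MMP27, with neither of these motifs. The 250 bases before the start are from RefSeq (GRCh38.p14, minus strand), and capitals mark matches to an AP-1 motif (TGANTCA), an ETS motif (GGAAGT, here as its reverse complement ACTTCC), an NF-kB motif (GGGNNTTCC) or a TATA box (TATAAA), searched on both strands.
MMP10: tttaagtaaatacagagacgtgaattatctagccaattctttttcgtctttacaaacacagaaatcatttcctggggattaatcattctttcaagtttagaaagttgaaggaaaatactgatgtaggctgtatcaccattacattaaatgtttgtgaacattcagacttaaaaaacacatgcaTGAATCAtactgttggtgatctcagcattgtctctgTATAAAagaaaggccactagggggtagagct
MMP7: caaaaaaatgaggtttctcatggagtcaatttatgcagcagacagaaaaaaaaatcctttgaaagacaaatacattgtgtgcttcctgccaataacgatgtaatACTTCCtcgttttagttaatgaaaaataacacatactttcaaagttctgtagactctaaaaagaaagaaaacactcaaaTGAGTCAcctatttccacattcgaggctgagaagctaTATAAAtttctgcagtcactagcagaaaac
MMP27: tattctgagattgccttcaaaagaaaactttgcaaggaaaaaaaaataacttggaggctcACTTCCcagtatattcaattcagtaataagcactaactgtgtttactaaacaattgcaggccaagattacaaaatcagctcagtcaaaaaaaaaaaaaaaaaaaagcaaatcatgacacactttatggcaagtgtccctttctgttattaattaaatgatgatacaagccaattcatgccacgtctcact

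The promoter table matched 5 of the 9 members, MMP7, MMP20, MMP27, MMP8 and MMP10. MMP1 and MMP3, the genes with a broad region, were not among them, so no motif was searched at their starts. The AP-1 motif, searched with any base in its middle (N), was found in 3 of these 5. It was found in 6.57% of all 35116 promoters over the same 250 bases. MMP10 and MMP7 held it at the same place, 67 to 61 bases before the start, as TGAATCA and TGAGTCA. In MMP20 it lay 112 to 106 bases before the start. A TATA box was found in 4 of the 5 and in 10.7% of all promoters. It lay 31 to 26 bases before the start in MMP10 and 30 to 25 in MMP7, but 72 to 67 in MMP20 and 110 to 105 in MMP8. The ETS motif was found in 2 of the 5, MMP7 and MMP27, and in 19.5% of all promoters. The NF-kB motif was in none of the 5 and in 5.78% of all promoters. Motif matches overlapped no other in the sequences shown, and they describe letters only.

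**Figure D1:**
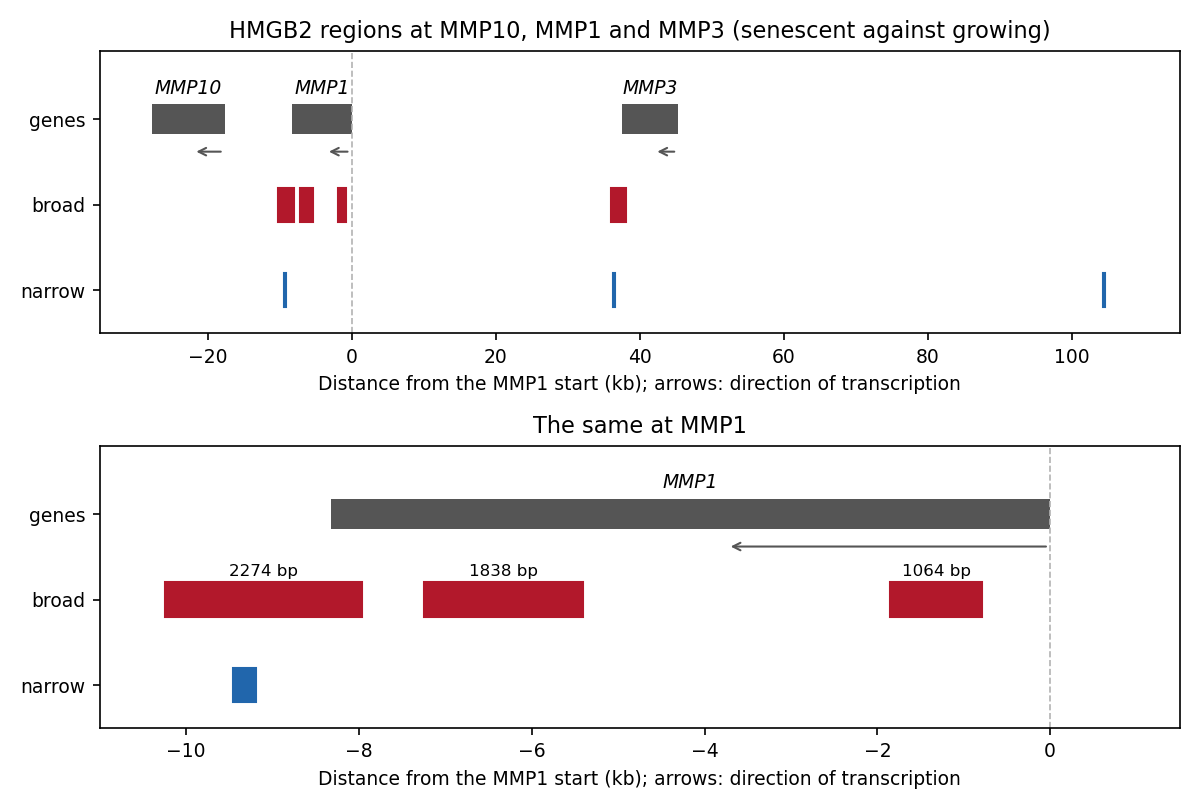
HMGB2 regions and the 3 genes with an hg19 interval, by distance from the MMP1 start in kb, over the stretch from MMP10 to the outermost narrow region (top) and at MMP1 (bottom). Bars are to scale with a thin outline, grey for genes, red for broad and blue for narrow regions, and all 4 broad regions lie at MMP1 or at the end of MMP3.

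MMP1 was placed at 102660641 to 102668966 of chromosome 11, a length of 8326 bp, on the minus strand, so its start is the higher position. The first region in the direction of transcription ran from 102667115 to 102668179 and was 1064 bp wide. It began 787 bp after the MMP1 start and ended 1851 bp after it, which is 9.45 to 22.2% of the gene length. It lay wholly inside the gene, with its near edge within 1 kb of the start.

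The second MMP1 region ran from 102661723 to 102663561 and was 1838 bp wide. It lay wholly in the body, from 5405 to 7243 bp after the start, or 64.9 to 87.0% of the gene length. The third ran from 102658722 to 102660996, was 2274 bp wide, and spanned the gene end. Of its bases, 356 lay in MMP1 and 1918 (84.3%) downstream of it. The 3 regions thus left the stretch around the start and the middle of the gene without a call.

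Together the 3 regions covered 3258 bp of MMP1 (39.1%). They lay within 9457 bp, with 727 bp between the region across the end and that in the body, and 3554 bp between the latter and the region near the start. Joining regions within 1 kb made the first pair into a single region, and joining those within 5 kb made all of them into a single region.

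MMP3 was placed at 102706528 to 102714342, a length of 7815 bp, also on the minus strand. Its region ran from 102704908 to 102707064, was 2156 bp wide and spanned the gene end, with 537 bp in MMP3 (6.87% of the gene) and 1619 bp (75.1% of the region) downstream. The rest of the gene up to its start, 7278 bp, held no broad region. The region stood 36.7 kb away from the nearest MMP1 region.

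The regions across the ends of MMP1 and MMP3 were alike in placement. Measured from the gene end, with negative values downstream, they ran from -1919 to 355 bp at MMP1 and from -1620 to 536 bp at MMP3. Each held 1 narrow region downstream of the gene. Its width of 264 bp is that of all 2792 narrow regions and is no likeness between the genes. The narrow region at MMP1, 102659511 to 102659775, lay 866 bp past the gene end, and that at MMP3, 102705314 to 102705578, lay 950 bp past it. Their midpoints lay at -998 and -1082 bp from the ends, at 40.5% and 25.0% of the broad region counted from its lower position. These are 2 genes, and no other gene of the cluster had a broad region across its end. MMP genes outside the cluster were placed by band only, so this placement could not be looked at there.

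**Figure D2:**
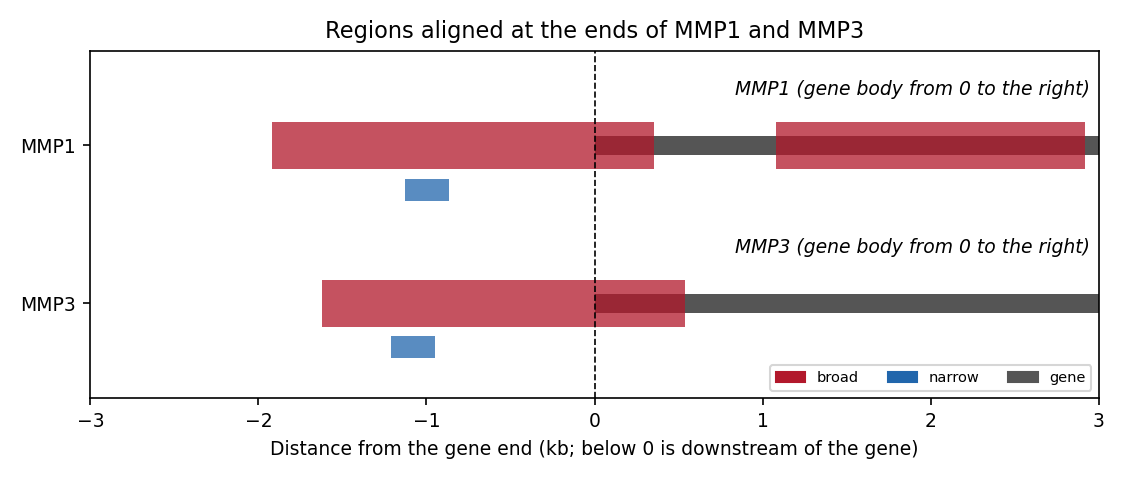
Broad (red) and narrow (blue) regions at MMP1 and MMP3, by distance from the end of each gene in kb, with the gene body (grey) to the right of 0. Both genes have a broad region across the end and a narrow region downstream, whose midpoints lie at -998 and -1082 bp.

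The gene intervals of MMP1, MMP3 and MMP10 came with the definition of the cluster and were checked against the RefSeq table of GRCh38.p14 by length and spacing only. MMP10 had the same length in both, and MMP1 and MMP3 were 84 and 6 bp longer in hg19. The gaps between neighbouring genes differed by 9 bp (MMP10 to MMP1) and 79 bp (MMP1 to MMP3). The length difference of 84 bp is smaller than the 356 bp of MMP1 and the 537 bp of MMP3 that lay in their end regions. Lengths and gaps cannot show a shift shared by all of these intervals, or at which end a length differs, so the error of the gene ends is not known. In the RefSeq table, the transcribed pseudogene WTAPP1 contains MMP1 and ends inside MMP3, so a region at these genes cannot be assigned to the MMP gene alone. Exons and introns of hg19 were not used here.

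MMP10, at 102641233 to 102651359, was the placed gene without a region. The nearest broad region, the one across the MMP1 end, began 7364 bp upstream of the MMP10 start, and the nearest narrow region 8153 bp upstream. Both lie in the 9.28 kb between MMP10 and MMP1, or reach from there into MMP1. With a flank of 10 kb in place of 5 kb, MMP10 would be counted as having a broad and a narrow region.

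Intervals of MMP7, MMP20, MMP27, MMP8, MMP12 and MMP13 in hg19 were not used here, and they were placed by their order on the chromosome alone. The collagenase MMP8, MMP27, MMP20 and matrilysin MMP7 all lie below MMP10, where the cluster held 0 broad and 0 narrow regions. The elastase MMP12 and the collagenase MMP13 lie above MMP3, where it held 0 broad regions and 1 narrow region. That narrow region, 102773302 to 102773566, lay 59.0 kb upstream of the MMP3 start and 66.2 kb from the nearest broad region. Where it lies relative to MMP12 and MMP13, inside or outside either gene, was not resolved. A gene without a region may have signal that missed the threshold of the authors.

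The regions at MMP1 and MMP3 were in the wider part of the broad list. All 4 were wide, here meaning over the smallest width of 500 bp that 311 of the 364 broad regions had, and 0.524% of the windows of 450 kb held a wide region. By width they ranked 10 (across the MMP1 end), 13 (MMP3), 16 (MMP1 body) and 25 (near the MMP1 start). Their median width was 1997 bp, against 1048 bp over the 53 wide regions, the widest of which had 6140 bp. The cluster made up 0.0145% of hg19 and held 3.12% of the summed width of broad regions, 7332 bp of 235 kb.

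In the deposited order, the same regions stood at places 7, 14, 16 and 29 of the broad list, and all of the first 29 broad regions were wide. The narrow regions past the MMP1 and MMP3 ends stood at places 5 and 17 of the narrow list, and the one above MMP3 at place 1682 of 2792. The narrow region that stands apart from MMP1 and MMP3 was thus also the late one in the list. The sources used here do not say what the order means.

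**Figure D3:**
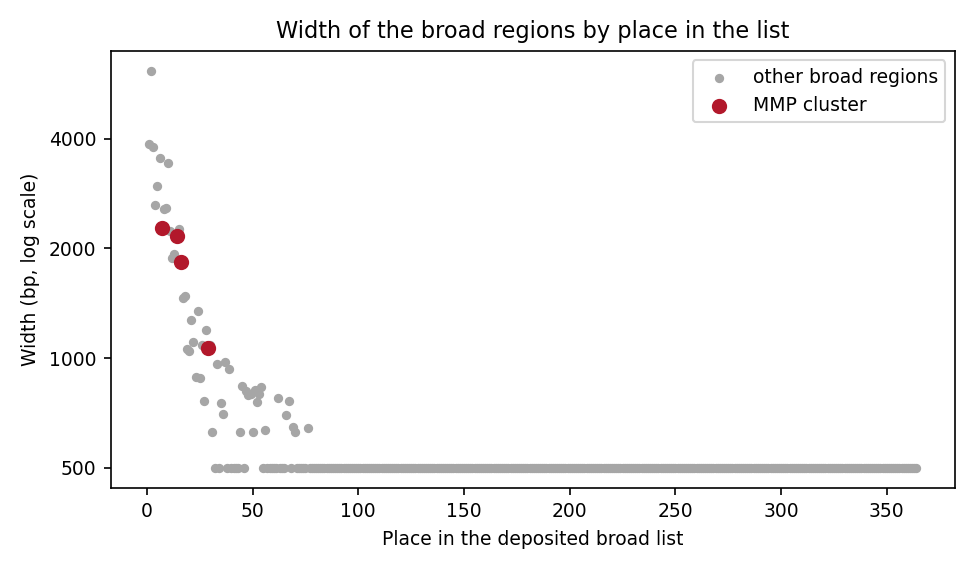
Width in bp (log scale) of each of the 364 broad regions against its place in the deposited list, with the 4 regions of the MMP cluster in red and all others in grey. The cluster regions, 1064 to 2274 bp wide, stand at places 7 to 29, before the long run of regions of 500 bp.

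Few windows of the genome held as many wide regions as the cluster. Of the 6868 windows, 1.43% held at least 3 narrow regions, as the cluster does. At least 4 wide regions were held by 0.0146%, which is 1 window, that of the MMP cluster itself. With windows of 1 Mb it was 2 of 3089 (0.0647%). At least 3 wide regions were held by 4 of the windows of 450 kb, and at least 2 by 11. The count of 4 in the cluster depends on how the calls were split. Joining regions within 1 kb left 3 there and within 5 kb left 2, and window shares are not given here for joined regions. Broad regions numbered 8.89 per Mb in the cluster, with an exact 95% Poisson interval of 2.42 to 22.8, and 0.118 per Mb in all of hg19. Narrow regions numbered 6.67 per Mb (1.37 to 19.5) and 0.902 per Mb. The intervals cover counting error only and take regions as independent. That is doubtful here, as 3 of the 4 broad regions lay within 9457 bp at MMP1. The cluster was chosen with earlier results of these lists known, so no test was made.

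Windows at fixed places can split a group of regions. With a window of 450 kb started at each broad region in turn, an alternative chosen after seeing the data, a stretch of chromosome 4 came first, with 4 wide and 5 broad regions from 74526471 to 74962673 and a summed width of 7870 bp. The MMP cluster came second with 7332 bp, followed by 7022 bp on chromosome 2 (113586040 to 113593857) and 6122 bp on chromosome 10 (75671551 to 75678829). The last 2 each held 2 wide regions. The 4 wide regions of the MMP cluster spanned 48.3 kb, and the 4 wide regions on chromosome 4 spanned 356 kb.

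**Figure D4:**
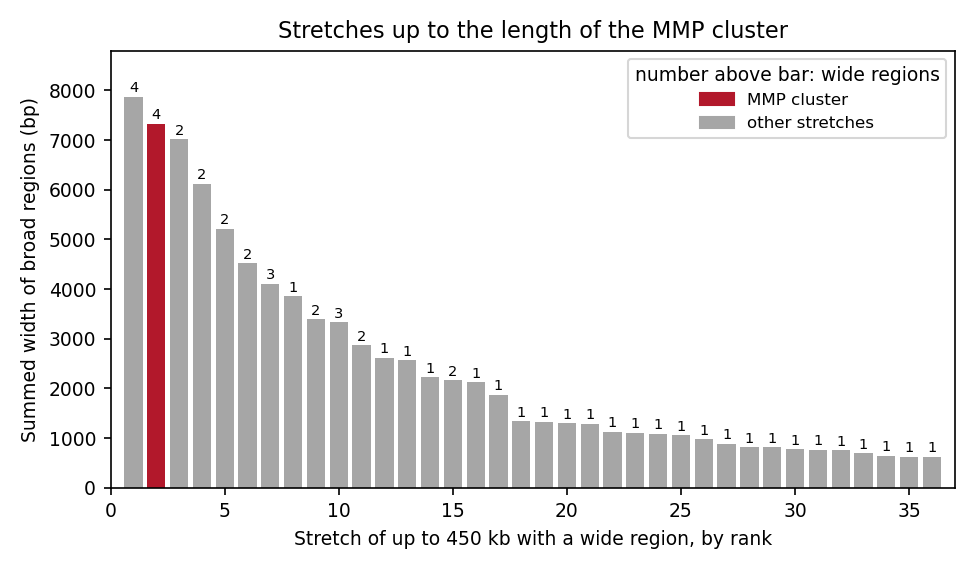
Summed width in bp of the broad regions in each of the 36 stretches of up to 450 kb that hold a wide region, by rank, with the number of wide regions above each bar and the MMP cluster in red. The MMP cluster comes second, at 7332 bp, after the stretch of chromosome 4 at 7870 bp, and these are the only ones with 4 wide regions.

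The MMP1 and MMP3 regions stood alone on their part of the chromosome. The nearest other broad regions lay 3.76 Mb below and 18.2 Mb above, both 500 bp wide. Chromosome 11 had 22 broad regions in all, 5 of them wide, and the 1 wide region outside the cluster was 814 bp. The nearest narrow regions outside lay 0.678 Mb below the narrow region at MMP1 and 2.15 Mb above the one beyond MMP3. The 100 kb on either side of the cluster thus held no further region. The protein-coding neighbours of MMP7 and MMP13 are TMEM123 and DCUN1D5, whose hg19 intervals were not used here.

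The broad and narrow lists overlapped at 2 of 4 broad regions (50%) and 2 of 3 narrow regions (66.7%) of the cluster. Over the whole lists, 27.5% of broad, 39.6% of wide and 3.62% of narrow regions overlapped the other list. With 4 and 3 regions, the exact binomial 95% intervals of the cluster shares were broad, 6.76 to 93.2% and 9.43 to 99.2%. Both lists come from the same 2 libraries and are not independent. The MMP1 regions in the body and near the start held no narrow region.

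Other MMP, TIMP and activator genes were placed only by the chromosome band of the same name in hg19 and GRCh38 and a band holds many genes, so a region in it need not lie at the gene named. Of the 21 genes, 6 were in a band with a wide region, against 3.94% of all 862 bands, and 12 in a band with any broad region, against 29.6%. All 21 were in a band with a narrow region, against 82.1% of all bands. Bands differ in length and gene number, and no test was made.

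Among 7 other secreted MMP genes, MMP2, gelatinase A, lay in a band with 1 wide region (16q12.2), and MMP11 and MMP21 in bands with regions of 500 bp only. MMP9, gelatinase B, MMP19, MMP26 and MMP28 were in bands with 0 broad regions. Among 7 genes of membrane-bound MMPs, MMP25 lay in 16p13.3 with 3 wide regions and MMP14, an activator of pro-MMP2, in 14q11.2 with 1. MMP15 and MMP16 lay in bands with regions of 500 bp only. The bands of MMP17, MMP23B and MMP24 held none of the broad regions. Of the 4 inhibitor genes, TIMP2 was in a band with a wide region, TIMP1 and TIMP4 in bands with regions of 500 bp only, and TIMP3 in a band with none. Of 3 activators of proenzymes, PLAU and PLAT, which make plasmin, lay in bands with 2 and 1 wide regions and FURIN, a proprotein convertase, in a band with 0 broad regions. The bands of MMP2, MMP14, MMP26, TIMP1 and TIMP2 differ in length between the builds by over 100 kb, which makes those placements uncertain.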

How the data were processed

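Libraries for HMGB2 ChIP-seq were made from 10 ng of precipitated DNA, 1 from senescent (RAS-infected) and 1 from growing IMR90 cells, per the labels' protocols. Bowtie 0.12.9, HOMER 1.0 and the build hg19 are named in the submitters' processing notes, with no role or order. Peak settings, filters, duplicates, input controls and read numbers are not stated there or in other sources used here. Per the file headers, the authors deposited 2 lists that give each region's name, its chromosome and its first and last position in bp. The headers name no normalization, and whether any was applied is unknown. The lists hold calls and not signal. Depth is thus unknown.

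Whether starts count from 0 or from 1 is not stated. Width was end minus start, and a start could differ by 1 bp. Overlap was at least 1 bp, and near a gene start or end meant within 1 kb. Windows took a region by its midpoint. Counts equalled those of bedtools 2.31.1. On simulated data, regions planted in 200 of 6868 windows of 450 kb were all recovered. The planted regions lay away from the window edges, so this checked the counting alone and not the splitting of groups at edges. Intervals are exact (Poisson, or Clopper-Pearson for shares) at 95%. Bands and chromosome lengths came from the R package circlize 0.4.16, and Python 3.11.15 with scipy 1.17.1 was used.

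The hg19 intervals of MMP10, MMP1 and MMP3 came with the definition of the cluster. The strand is that of the promoter table for 5 genes and textbook knowledge for MMP1, MMP3, MMP12 and MMP13. No coordinates were converted. The members, lists and alternatives were chosen with earlier results of these data known. Named genes were the 9 cluster genes, their coding neighbours, and genes of the list of other MMPs, inhibitors and activators in bands with a region. The most similar loci were to be the 3 windows with the largest summed width. No test between conditions was possible with 1 library each. Region sequences need an hg19 genome, which was not used here.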

Additional observations from a re-analysis of the deposited data

How the results depend on the processing

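The 4 broad regions of the cluster were the same in number with whole regions inside it, with 100 kb added on each side, from MMP10 to MMP3 alone and in the earlier 0.5 of the list. Joining regions within 5 kb left 2, by construction. The 3 narrow regions became 2 from MMP10 to MMP3 alone and in the earlier 0.5 of the list. Windows of 1 Mb, by their length, raised the share with a narrow region to 55.6%, with at least 3 narrow regions to 8.38%, with a broad region to 9.78% with a wide region to 1.17% and with at least 4 wide regions from 0.0146 to 0.0647%. With a flank of 10 kb in place of 5 kb, 3 in place of 2 of the placed genes had a broad region, and likewise for narrow regions. At least the summed width of the cluster was found in 2 windows of 1 Mb, and in 2 windows started at each broad region, where tiled windows gave 1. No paired analysis was possible because there is only 1 library for each condition, with no test between them. Since the depth is unknown, a place without a region may be one with too few reads.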
